A study of Mus musculus with 15 samples.

Results

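Cxcl10 and Ccl5 are genes of secreted chemokines, and their transcripts were followed through 5 treatments of the mouse melanoma line B16.F10, cultured in 1% O2. They are 2 of the 13172 genes listed in the count tables and 2 of the 12721 listed for every treatment. They were chosen by symbol because their read counts, expressed as CPM (reads scaled to a common library size), differed between the treatments, so every level and fold change of these 2 genes is a description and carries no test. Chemokines are small proteins that set up gradients along which leukocytes migrate. Cxcl10 is an interferon-inducible CXC chemokine that binds Cxcr3 on activated T cells and natural killer cells. Ccl5, also called RANTES, is a CC chemokine that attracts T cells, monocytes and eosinophils. Tumour cells can make both, and interferon regulatory factors and NF-kB are the best known activators of their promoters.

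The groups had 3 libraries each. Hif1a_siRNA_Dox cells were given an anti Hif-1α siRNA and then doxorubicin, and Dox cells had doxorubicin alone. Hif1a_siRNA cells had the anti Hif-1α siRNA alone, NC_siRNA cells a negative control siRNA, and Control cells no agent. The groups with the anti Hif-1α siRNA are labelled Hif-1a knockdown, and the other 3 WT. The siRNAs were given as lipoplexes at 25 nM. Doxorubicin is an anthracycline that damages DNA through topoisomerase II. Cells had 0.25 µM of it for 24 h, starting 24 h after the siRNA in the combined treatment. For cells without the drug, the sources used here do not give how long after the siRNA they were harvested. In Hif1a_siRNA_Dox against Hif1a_siRNA the drug and the time since the siRNA thus cannot be told apart. No group had the negative control siRNA with doxorubicin, so in Hif1a_siRNA_Dox against Dox the loss of Hif1a and the transfection cannot be told apart. Libraries are labelled as biological replicates, but no label names separate cultures. The p-values thus reflect only how far these libraries spread, and that spread may be technical.

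The 15 libraries held 23825110 to 28734303 counted reads. Hif1a, the target of the siRNA, averaged 13.1 ± 1.35 CPM in Hif1a_siRNA_Dox, 142 ± 8.91 CPM in Dox, 17.2 ± 1.57 CPM in Hif1a_siRNA, 274 ± 13.5 CPM in NC_siRNA and 217 ± 13.2 CPM in Control cells (SD, n = 3 each). All 10 melanocyte markers, among them Pmel and Tyr, had values in every group, and their summed level was 11950 CPM or more in each library. Of 22 immune cell markers Cd79a and Cd68 were analysed here, and their summed level was 29.7 to 38.8 CPM in Hif1a_siRNA_Dox, 23.8 to 31.9 CPM in Dox, 7.86 to 7.97 CPM in Hif1a_siRNA, 13.3 to 18.2 CPM in NC_siRNA and 19.8 to 31.3 CPM in Control cells. In Dox against Control Cd79a was higher (log2 fold change 4.63, edgeR adjusted p = 1.16e-15) and Cd68 lower (-2.25, 2.84e-09). Cd79a averaged 26.9 CPM in Hif1a_siRNA_Dox, 24.1 in Dox, 0.425 in Hif1a_siRNA, 0.647 in NC_siRNA and 0.965 CPM in Control cells. Cd68 averaged 6.93 CPM in Hif1a_siRNA_Dox, 4.92 in Dox, 7.50 in Hif1a_siRNA, 15.4 in NC_siRNA and 23.4 CPM in Control cells. Of 11 endothelial and fibroblast markers Vwf, Pdgfra and Pdgfrb were analysed, with sums of 42.5 to 45.1 CPM in Hif1a_siRNA_Dox, 30.9 to 34.3 CPM in Dox, 18.6 to 21.1 CPM in Hif1a_siRNA, 18.9 to 24.0 CPM in NC_siRNA and 16.1 to 17.8 CPM in Control cells. The other markers of these lists were not analysed here, and the part of other cells in the results was not tested.

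Cxcl10 (gene ID 15945; GRCm38 chromosome 5, 92346638 to 92348889, minus strand, 4 exons) had 167, 206 and 136 reads in the Hif1a_siRNA_Dox libraries, which is 5.94, 6.69 and 5.54 CPM. The Dox libraries had 90, 108 and 104 reads, or 3.94, 4.53 and 4.61 CPM. The Hif1a_siRNA libraries had 2801, 2981 and 2872 reads, or 87.1, 90.1 and 86.3 CPM. Those 3 libraries stood apart from the other 12, whose highest value was 6.69 CPM. The NC_siRNA libraries had 100, 100 and 117 reads, or 3.60, 3.66 and 4.35 CPM, and the Control libraries had 99, 134 and 135 reads, or 4.37, 5.91 and 5.84 CPM. Ordered by mean, the groups ran Hif1a_siRNA (87.8 ± 1.98 CPM), Hif1a_siRNA_Dox (6.06 ± 0.586), Control (5.37 ± 0.871), Dox (4.36 ± 0.367) and NC_siRNA (3.87 ± 0.417; SD, n = 3 each). Below the first place, each group's range overlapped that of the next group in this order. The mean put Cxcl10 at percentile 82.2 of the 12721 genes in Hif1a_siRNA cells and at percentiles 17.2 to 24.0 in the other groups. In bulk RNA, more cells with the transcript and more transcript per cell cannot be told apart.

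The 250 bases before the annotated start of Cxcl10 hold letters of the elements for which this promoter is known, and they are shown because the interferon and NF-kB genes are described further on. The sequence is that of RefSeq GRCm38.p6, chr5:92348890-92349139, read 5′ to 3′ along the minus strand. The capitals mark, in order, an interferon-stimulated response element, 2 NF-kB motifs and an AP-1 motif.
Cxcl10: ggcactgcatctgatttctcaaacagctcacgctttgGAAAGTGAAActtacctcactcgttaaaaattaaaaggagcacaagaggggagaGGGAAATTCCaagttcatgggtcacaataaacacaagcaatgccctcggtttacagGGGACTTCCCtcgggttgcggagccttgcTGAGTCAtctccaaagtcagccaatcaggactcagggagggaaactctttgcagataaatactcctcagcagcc
Counted from the start, the response element (GAAA, any 2 bases, then GAAA, searched on both strands as were all motifs) lies at -213 to -204, the NF-kB motifs (GGGA, any 4 bases, then CC) at -159 to -150 and -103 to -94, and the AP-1 motif (TGAGTCA) at -74 to -68. None of these matches overlaps another. Of 32851 promoter windows of the same length, 2.98% held the response element, 17.6% the NF-kB motif and 4.46% the AP-1 motif. With 1 mismatch allowed, 31.4% of windows matched the response element. Of the hypoxia response cores, ACGTG had 0 matches in the Cxcl10 window and is found in 16.6% of windows. The core GCGTG had 1 match, on the opposite strand at -222 to -218, and is found in 28.2% of windows. A match is a run of letters and no evidence of binding, and these counts measured no factor.

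The 10 letters of the Cxcl10 element, GAAAGTGAAA, were found on either strand of 68 windows, which is 0.207% of them. They include those of Ifit1, Ifit3 and Ifit3b, antiviral RNA-binding genes on chromosome 19. These were picked from the 13 interferon-stimulated genes found with the response element. Like Cxcl10, they had to be higher in Hif1a_siRNA than in Control and lower in Hif1a_siRNA_Dox than in Hif1a_siRNA cells. Their likeness to Cxcl10 in levels thus follows from the choice. The letters are shown for the picked genes with 10 bases on each side, on the plus strand of GRCm38.p6. The capitals are the reverse complement (Ifit1, chr19:34640775-34640804; Ifit3, chr19:34583363-34583392; Ifit3b, chr19:34607759-34607788).
Ifit1: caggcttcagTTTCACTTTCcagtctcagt
Ifit3: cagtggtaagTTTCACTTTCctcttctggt
Ifit3b: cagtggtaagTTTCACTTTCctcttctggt
Ifit3 and Ifit3b have the same 30 letters here and are near-identical genes, so the division of reads between them is uncertain.

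Ccl5 (gene ID 20304; GRCm38 chromosome 11, 83525778 to 83530518, minus strand, 3 exons) had 305, 240 and 267 reads in the Hif1a_siRNA_Dox libraries, or 10.9, 7.80 and 10.9 CPM. The Dox libraries had 29, 32 and 46 reads, or 1.27, 1.34 and 2.04 CPM, the lowest group mean of the series. The Hif1a_siRNA libraries had 402, 377 and 368 reads, or 12.5, 11.4 and 11.1 CPM. Both groups given the anti Hif-1α siRNA therefore lay above the other 3 groups, with or without the drug. The NC_siRNA libraries had 65, 90 and 82 reads, or 2.34, 3.30 and 3.05 CPM, and the Control libraries had 60, 49 and 46 reads, or 2.65, 2.16 and 1.99 CPM. The order by mean was Hif1a_siRNA (11.7 ± 0.752 CPM), Hif1a_siRNA_Dox (9.84 ± 1.77), NC_siRNA (2.90 ± 0.498), Control (2.27 ± 0.341) and Dox (1.55 ± 0.425; SD, n = 3 each). NC_siRNA and Control overlapped, and so did Control and Dox. The Hif1a_siRNA and Hif1a_siRNA_Dox ranges did not overlap, but their nearest libraries had 11.1 and 10.9 CPM. The mean CPM of Ccl5 lay between percentile 7.18 of all genes, in Dox, and percentile 33.9, in Hif1a_siRNA.

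**Figure D1:**
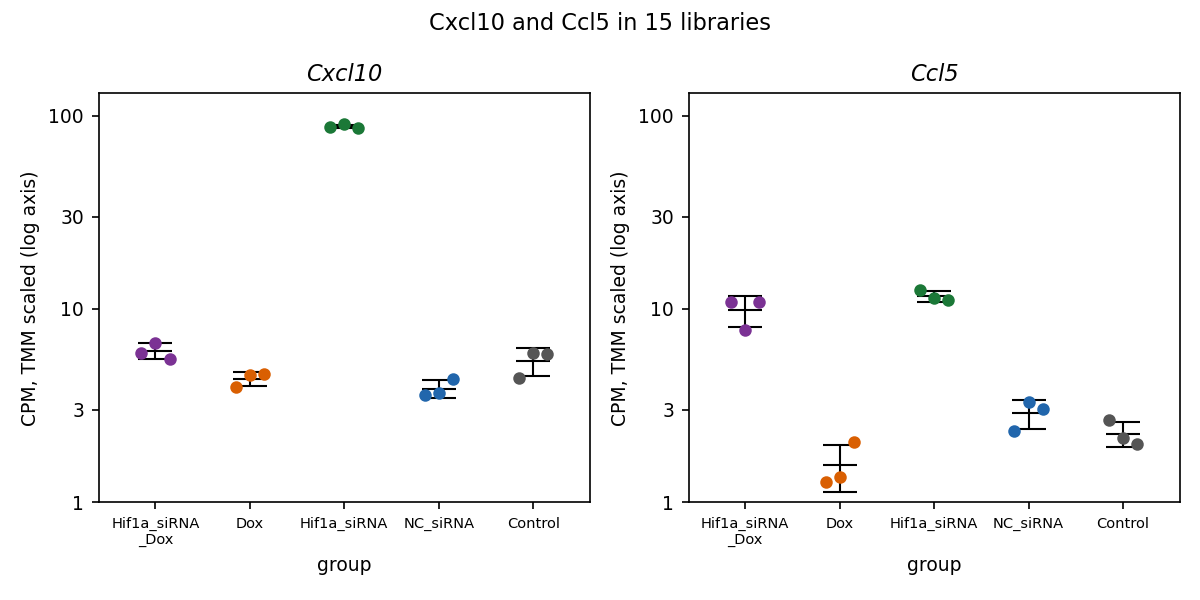
CPM of Cxcl10 (left) and Ccl5 (right) in each library on a log axis, by group; points are libraries and the black bar is the mean ± SD of 3. Cxcl10 stands at 86.3 to 90.1 CPM in Hif1a_siRNA and at 6.69 CPM or less elsewhere, whereas Ccl5 is at 7.80 CPM or more in both groups given the anti Hif-1α siRNA and at 3.30 CPM or less elsewhere.

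Hif1a_siRNA against NC_siRNA compares the anti Hif-1α siRNA with the negative control siRNA, without the drug. No group had another anti Hif-1α siRNA, so the loss of Hif1a and other effects of this siRNA cannot be told apart. The Cxcl10 level was 22.7-fold higher in Hif1a_siRNA than in NC_siRNA cells (log2 fold change 4.50 ± 0.12, SE), the first of the 12721 genes from the top. The next gene was Lrr1 at 4.30. Ccl5 was 4.02-fold higher (2.01 ± 0.19) and took place 224. Of all genes, 227 reached a log2 fold change of 2 in this comparison, which is 1.78% of those tested. Against untreated Control cells the same libraries were 16.3-fold higher for Cxcl10 (4.03 ± 0.12) and 5.13-fold higher for Ccl5 (2.36 ± 0.20). All 3 Hif1a_siRNA libraries lay above all 6 libraries of NC_siRNA and Control for both genes. Of all genes, 41.7% lay above without overlap in Hif1a_siRNA against NC_siRNA, and 43.1% in Hif1a_siRNA against Control.

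NC_siRNA against Control compares cells given the negative control siRNA lipoplex with untreated cells. No group had a lipoplex without siRNA or another negative control siRNA. The transfection and other effects of this siRNA thus cannot be told apart. Cxcl10 was lower in all 3 NC_siRNA libraries than in any Control library, with a log2 fold change of -0.47 ± 0.14, as were 37% of all genes. The NC_siRNA and Control ranges of Ccl5 overlapped (0.35 ± 0.21). Neither gene was near its Hif1a_siRNA level in any NC_siRNA library.

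Dox against Control gave overlapping ranges for both chemokines. The log2 fold changes were -0.30 ± 0.14 for Cxcl10 and -0.55 ± 0.23 for Ccl5. In cells that had the anti Hif-1α siRNA the genes lay at different places with the drug. The harvest time of Hif1a_siRNA cells is not given, so a part of time since the siRNA cannot be told apart. Cxcl10 was 14.4-fold lower in Hif1a_siRNA_Dox than in Hif1a_siRNA cells (-3.85 ± 0.12), the 55th of 12721 genes from the bottom. Ccl5 differed between the same libraries by -0.25 ± 0.17. Both genes were lower without overlap, as were 42.1% of all genes. The drug's effect after the anti Hif-1α siRNA minus its effect without it was -3.55 ± 0.18 for Cxcl10, the second lowest of all genes, and 0.30 ± 0.29 for Ccl5.

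Hif1a_siRNA_Dox against Dox sets the siRNA against none under the drug. Ccl5 was 6.33-fold higher in Hif1a_siRNA_Dox than in Dox cells (2.66 ± 0.21). It was the first of the 12721 genes, with Trib1, a pseudokinase that directs protein degradation, next at 1.70. This ranking leaves out genes not listed for every group. One of them, the interferon-stimulated gene Ddx60, was not analysed here in NC_siRNA cells. In a fit of the compared groups alone Ddx60 was higher by 1.97 (edgeR adjusted p = 0.000126). Of the 12721 genes Ccl5 was the 1 to reach a log2 fold change of 2 here, or 0.00786% of them. It was also 1 of the 227 genes past that size in Hif1a_siRNA against NC_siRNA, or 0.441% of that list. Ccl5 was chosen for its levels over these same groups, so its place in both lists is a description and no independent support. Cxcl10 was 0.48 ± 0.13 higher on the log2 scale in Hif1a_siRNA_Dox than in Dox cells. Neither gene's ranges overlapped, and 23.4% of all genes were higher in this way. Hif1a_siRNA_Dox against Control left Cxcl10 with overlapping ranges (0.18 ± 0.13) and Ccl5 4.33-fold higher without overlap (2.11 ± 0.20), as were 42.4% of all genes.

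The ratio of Cxcl10 to Ccl5 reads within a library needs no scaling between libraries. It was 0.548, 0.858 and 0.509 in Hif1a_siRNA_Dox, 3.10, 3.38 and 2.26 in Dox, and 6.97, 7.91 and 7.80 in Hif1a_siRNA cells. In NC_siRNA cells it was 1.54, 1.11 and 1.43, and in Control cells 1.65, 2.73 and 2.93. Ccl5 reads outnumbered Cxcl10 reads in the 3 Hif1a_siRNA_Dox libraries and in no other. Per kb of exon, which allows levels of different genes to be compared, Cxcl10 and Ccl5 had 80.3 ± 1.81 and 21.9 ± 1.41 CPM per kb in Hif1a_siRNA cells. In Hif1a_siRNA_Dox cells they had 5.54 ± 0.535 and 18.5 ± 3.33 CPM per kb (SD, n = 3). The Dox values were 3.99 ± 0.336 CPM per kb for Cxcl10 and 2.92 ± 0.799 for Ccl5. NC_siRNA cells had 3.54 ± 0.382 and 5.44 ± 0.936 CPM per kb of the same genes, and Control cells 4.91 ± 0.796 and 4.26 ± 0.641.

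**Figure D2:**
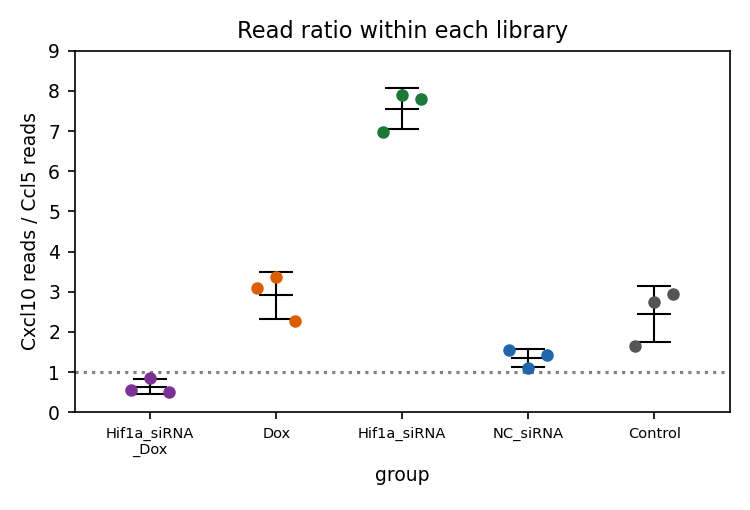
Cxcl10 reads divided by Ccl5 reads in each library, by group; points are libraries, the black bar is the mean ± SD of 3 and the dotted line is a ratio of 1. The ratio averages 7.56 in Hif1a_siRNA cells and 0.638 in Hif1a_siRNA_Dox cells, the group below the dotted line.

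For each chemokine, the 5 genes closest to it over the 5 group means were found, as a description. The measure was the root mean square difference of log2(CPM + 0.5), each gene centred on its own mean, over 10592 genes that reached 5 CPM in some group. The closest to Cxcl10 was Nop58 (0.58), a core protein of small nucleolar RNPs, followed by Osgin1 (0.74), Trip13 (0.78), Polq (0.78) and Gnl3 (0.79). Nop58 averaged 59.5 CPM in Hif1a_siRNA_Dox, 43.3 in Dox, 283 in Hif1a_siRNA, 30.1 in NC_siRNA and 51.4 in Control cells, so it too was highest in Hif1a_siRNA. The closest to Ccl5 was Prickle1 (0.39), a planar cell polarity gene, followed by Zfp189 (0.46), Prkar2a (0.47), Tgif1 (0.48) and Chchd4 (0.51). Prickle1 averaged 28.8 CPM in Hif1a_siRNA_Dox, 10.4 in Dox, 38.0 in Hif1a_siRNA, 15.4 in NC_siRNA and 7.06 in Control cells.

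**Figure D3:**
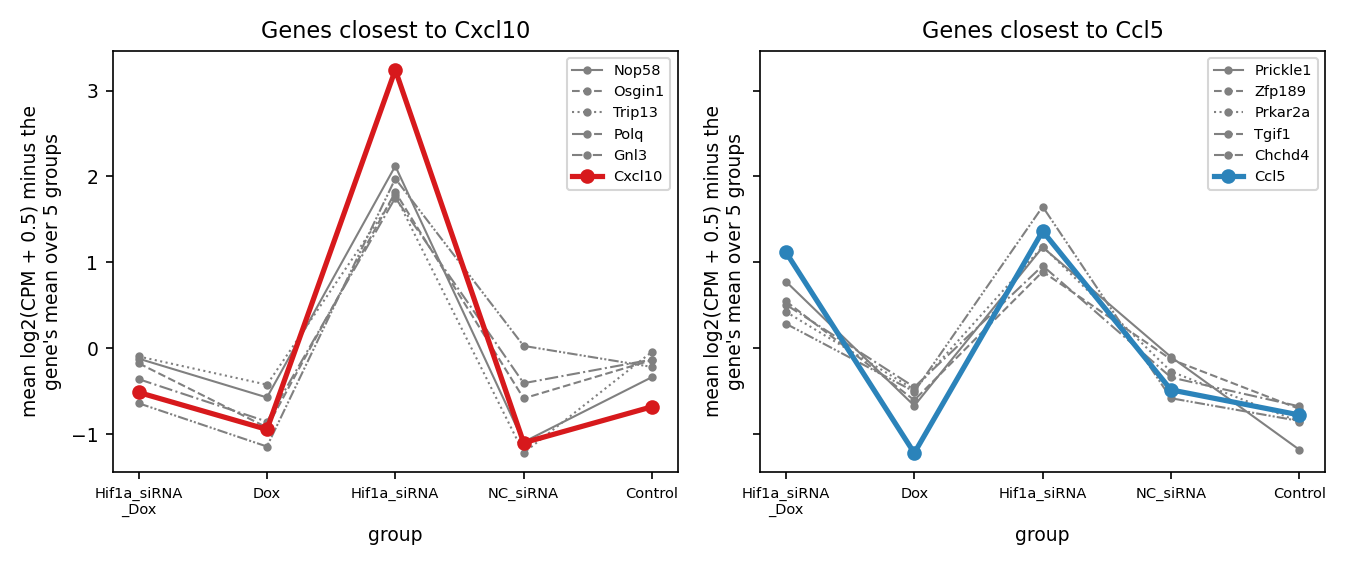
Group means of log2(CPM + 0.5), centred on each gene's mean over the 5 groups, for Cxcl10 (left, red) and Ccl5 (right, blue) with the 5 closest genes of each in grey. The Cxcl10 profile has 1 peak, at Hif1a_siRNA, and the Ccl5 profile is high at both Hif1a_siRNA_Dox and Hif1a_siRNA.

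Few other chemokine genes could be read. Of 35 other ligands, Ccl25, Ccl27a and Ccl28 were tested and 32 were not analysed here, nor were any of 22 chemokine receptors, so the receptors of both ligands give no values. Calls at an edgeR adjusted p under 0.05 were common across the genome. In Hif1a_siRNA against NC_siRNA 36.4% of all genes were higher and 31.2% lower, and 0 of the 3 other chemokines was called (edgeR adjusted p 0.061 to 0.114 for log2 fold changes of -0.35 to 0.61). DESeq2 also called 0, and 1, Ccl28, had an unadjusted p under 0.05. Without NC_siRNA replicate 1 Ccl27a was called (-0.55), without NC_siRNA replicate 3 Ccl28 (0.78), and without Hif1a_siRNA replicate 3 Ccl25 (0.48). In Hif1a_siRNA_Dox against Dox 21.5% of genes were higher and 20.8% lower, and again 0 of 3 was called (edgeR adjusted p 0.191 to 0.363, log2 fold changes -0.29 to 0.46), as with DESeq2 or at an unadjusted p under 0.05. In Dox against Control, where 43.9% were higher and 39.8% lower, the skin chemokine Ccl27a was higher (1.96, edgeR adjusted p = 4.61e-10) and so was Ccl28, a chemokine of mucosal tissues (1.97, 3.1e-05). Ccl28 had only 6, 10 and 8 reads in the Control libraries. Without the drug it was also above Control in NC_siRNA (1.67, edgeR adjusted p = 0.00041) and Hif1a_siRNA cells (2.27, 3.55e-06). In Hif1a_siRNA_Dox against Hif1a_siRNA, with 42.6% of genes higher and 41.6% lower, Ccl27a (2.38, edgeR adjusted p = 1.65e-11) and Ccl25 (0.48, 0.0176) were higher. Ccl27a averaged 18.1 ± 1.48 CPM in Hif1a_siRNA_Dox, 20.6 ± 0.154 in Dox, 3.48 ± 0.480 in Hif1a_siRNA, 4.43 ± 1.54 in NC_siRNA and 5.29 ± 0.929 CPM in Control cells (SD, n = 3 each). Its high groups were the drug-treated ones, unlike those of either Cxcl10 or Ccl5. Ccl25 and Ccl27a overlap genes on the other strand, Elavl1 and Il11ra1, so part of their reads may be shared.

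Chemokines are held at cell surfaces by heparan sulphate proteoglycans. Of 8 genes that bind or cleave chemokines, the syndecans Sdc1, Sdc2, Sdc3 and Sdc4 and the glypican Gpc1 were tested. In Dox against Control, where 43.9% of all genes were higher, all 5 were higher, Sdc1 by 3.71 (edgeR adjusted p = 2.05e-21). In Hif1a_siRNA against NC_siRNA 36.4% of all genes were higher and 31.2% lower. Sdc1 (0.44) and Sdc3 (0.44) were higher and Sdc4 (-0.57) and Gpc1 (-1.46) lower, with edgeR adjusted p of 0.000354 or less. In Hif1a_siRNA_Dox against Dox, where 20.8% of all genes were lower, Sdc3 (-1.03), Sdc4 (-0.19) and Gpc1 (-0.23) were lower (edgeR adjusted p of 0.0209 or less). With RLE factors, another scaling of library sizes, Sdc4 and Gpc1 were no longer called (-0.14 and -0.19).

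No interferon gene gave values: the 11 on the list were not analysed here. The sensors of foreign or misplaced nucleic acid that lead to interferon and to Cxcl10 and Ccl5 were better covered, with 16 of 21 tested. In Hif1a_siRNA against NC_siRNA 7 were higher and 5 lower, near the shares of all genes. The named ones were Irf5 (2.25), Ifih1 (1.67), Cgas (1.38) and the adaptor Traf3 (1.30), with edgeR adjusted p of 5.42e-06 or less. Irf5, a transcription factor, was lower in NC_siRNA than in Control cells (-2.16, edgeR adjusted p = 1.21e-05), and averaged 2.11 CPM in Hif1a_siRNA, 0.436 CPM in NC_siRNA and 1.97 CPM in Control cells. Ifih1, a sensor of long double-stranded RNA, averaged 2.22 ± 1.29 CPM in Hif1a_siRNA_Dox, 1.32 ± 0.320 in Dox, 7.41 ± 0.413 in Hif1a_siRNA, 2.33 ± 0.197 in NC_siRNA and 2.56 ± 0.383 CPM in Control cells (SD, n = 3 each). As with Cxcl10, its highest group was Hif1a_siRNA. In Hif1a_siRNA_Dox against Dox 11 of the 16 sensing genes were higher and 0 lower by edgeR, where 21.5% of all genes were higher. DESeq2 gave the same counts, as did an unadjusted p under 0.05. The list had a median log2 fold change of 0.47 beside 0.01 over all genes. The named ones were Ticam1, the adaptor of Tlr3 (1.09, edgeR adjusted p = 6.18e-07), the kinase Tbk1 (0.90, 4.07e-07), Cgas, the sensor of cytosolic DNA (0.86, 2.9e-05) and the kinase Ikbke (0.79, 0.00401). Scaled by library totals alone, 76.8% of all calls in this comparison were higher, against 50.9% with TMM.

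Cgas had 23.4, 19.4 and 23.3 CPM in Hif1a_siRNA_Dox, 10.8, 12.8 and 12.9 in Dox, 6.87, 7.49 and 6.76 in Hif1a_siRNA, 2.77, 2.49 and 2.86 in NC_siRNA and 1.46, 2.29 and 1.64 CPM in Control cells. Its order was thus neither that of Cxcl10 nor that of Ccl5, since the drug-treated groups were highest. Irf3, the transcription factor that Tbk1 activates, was likewise higher in Dox than in Control cells (2.61, edgeR adjusted p = 1.15e-15) and in Hif1a_siRNA_Dox than in Hif1a_siRNA cells (1.70, 5.45e-13).

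Interferon receptors and the JAK-STAT genes that carry their signal had 15 of 18 members tested. In Hif1a_siRNA against NC_siRNA, where 36.4% of all genes were higher and 31.2% lower, 3 were higher and 5 lower. With library totals alone these counts were 5 and 3. Socs3, a feedback inhibitor of JAK kinases, was higher by 2.73 (edgeR adjusted p = 1.17e-14) and Jak2 by 0.70 (4.53e-07), while the kinase Tyk2 (-0.94, 9.34e-08) and the transcription factor Irf1 (-0.75, 7.51e-06) were lower. Socs3 was itself lower in NC_siRNA than in Control cells (-1.41, edgeR adjusted p = 9.21e-09). Against Control, Hif1a_siRNA cells had it higher by 1.33 (8.54e-10). In Hif1a_siRNA_Dox against Dox, where 21.5% of all genes were higher and 20.8% lower, 8 were higher and 2 lower. Socs3 (0.64), the interferon gamma receptor Ifngr1 (0.55) and Irf9 (0.44) were higher at edgeR adjusted p of 0.0292 or less. The Irf9 call was lost without Dox replicate 1, without Dox replicate 3 or without Hif1a_siRNA_Dox replicate 1. Irf9, the DNA-binding part of the interferon-activated complex on the response element, averaged 16.2 ± 2.08 CPM in Hif1a_siRNA_Dox, 11.9 ± 1.16 in Dox, 6.61 ± 0.390 in Hif1a_siRNA, 5.13 ± 0.515 in NC_siRNA and 1.46 ± 0.613 CPM in Control cells (SD, n = 3 each). It too was highest in the drug-treated groups.

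Interferon-stimulated genes other than Cxcl10 had 29 of 48 members tested in all groups. In Hif1a_siRNA against NC_siRNA 36.4% of all genes were higher and 31.2% lower. Of the 29, 16 were higher, 6 lower and 7 not called, with a median log2 fold change of 0.51 beside 0.06 over all genes. Ifit3 (2.58, edgeR adjusted p = 1.74e-07) and the antiviral GTPase Mx1 (2.41, 4.03e-06) were higher, and the exonuclease Isg20 (-3.91, 3.91e-19) and the GTPase Gbp2 (-2.78, 1.55e-11) were lower. Some also differed between NC_siRNA and Control cells, where 33.1% of genes were higher and 33.7% lower in NC_siRNA. Of the list, 13 were higher and 4 lower, and 8 were higher at an edgeR adjusted p under 0.01. Gbp2 (2.96), Lgals3bp (1.57), Parp14 (1.53) and Ifit2 (1.48) led the higher ones, with edgeR adjusted p of 4.13e-06 or less.

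Comparisons of cells with and without doxorubicin gave the larger counts, for this list and for all genes. In Dox against Control, where 43.9% of all genes were higher and 39.8% lower, 23 of the 29 were higher and 5 lower. The list had a median of 1.63 beside 0.10 over all genes. The named ones were Parp14 (5.31), Igtp (5.30), the peptide transporter Tap1 (4.14) and the ubiquitin-like modifier Isg15 (4.01), with edgeR adjusted p of 4.84e-14 or less. In Hif1a_siRNA_Dox against Hif1a_siRNA, where 42.6% of all genes were higher and 41.6% lower, 19 were higher and 5 lower. The median was 1.42 beside 0.04. Parp14 (3.73), Igtp (3.68), Tap1 (3.60) and Gbp2 (2.96) led, with edgeR adjusted p of 1.39e-12 or less. Parp14 averaged 57.1 ± 2.65 CPM in Hif1a_siRNA_Dox, 41.4 ± 5.22 in Dox, 4.29 ± 0.770 in Hif1a_siRNA, 3.01 ± 0.420 in NC_siRNA and 1.04 ± 0.416 CPM in Control cells (SD, n = 3 each). Most members of this list were thus higher with the drug in a comparison in which Cxcl10 was 14.4-fold lower. The 5 lower ones, named after their values were seen, were Herc6 (-2.41), Ifit2 (-2.18), Ifit3 (-0.90), Samd9l (-0.65) and Parp12 (-0.40), with edgeR adjusted p of 0.00426 or less.

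Ifit2 had 9.36, 10.1 and 13.4 CPM in Hif1a_siRNA_Dox, 9.50, 11.8 and 11.5 in Dox, 49.5, 52.4 and 46.6 in Hif1a_siRNA, 30.3, 28.0 and 27.5 in NC_siRNA and 11.2, 9.26 and 10.3 CPM in Control cells. It was highest in Hif1a_siRNA, as was Cxcl10, but NC_siRNA stood in between. Ifit3 averaged 4.54 ± 1.21 CPM in Hif1a_siRNA_Dox, 2.89 ± 0.779 in Dox, 8.54 ± 0.300 in Hif1a_siRNA, 1.43 ± 0.719 in NC_siRNA and 0.748 ± 0.354 CPM in Control cells (SD, n = 3 each). Ifit1 was read in 4 groups and not analysed here in NC_siRNA cells. It had 3.81, 3.44 and 3.34 CPM in Hif1a_siRNA_Dox, 0.788, 1.05 and 1.55 in Dox, 9.86, 10.2 and 8.24 in Hif1a_siRNA and 0.441, 0.397 and 0.346 CPM in Control cells. In fits of the compared groups alone Ifit1 was higher in Hif1a_siRNA than in Control cells (4.51, edgeR adjusted p = 1.1e-09) and in Hif1a_siRNA_Dox than in Dox cells (1.65, 0.000305). It was lower in Hif1a_siRNA_Dox than in Hif1a_siRNA cells (-1.42, edgeR adjusted p = 2.58e-06). The neighbouring Ifit genes were therefore highest in Hif1a_siRNA cells, among 4 groups for Ifit1, with Ifit1 and Ifit3 also above Control in Hif1a_siRNA_Dox cells (edgeR adjusted p = 2.05e-07 and 5.97e-07).

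**Figure D4:**
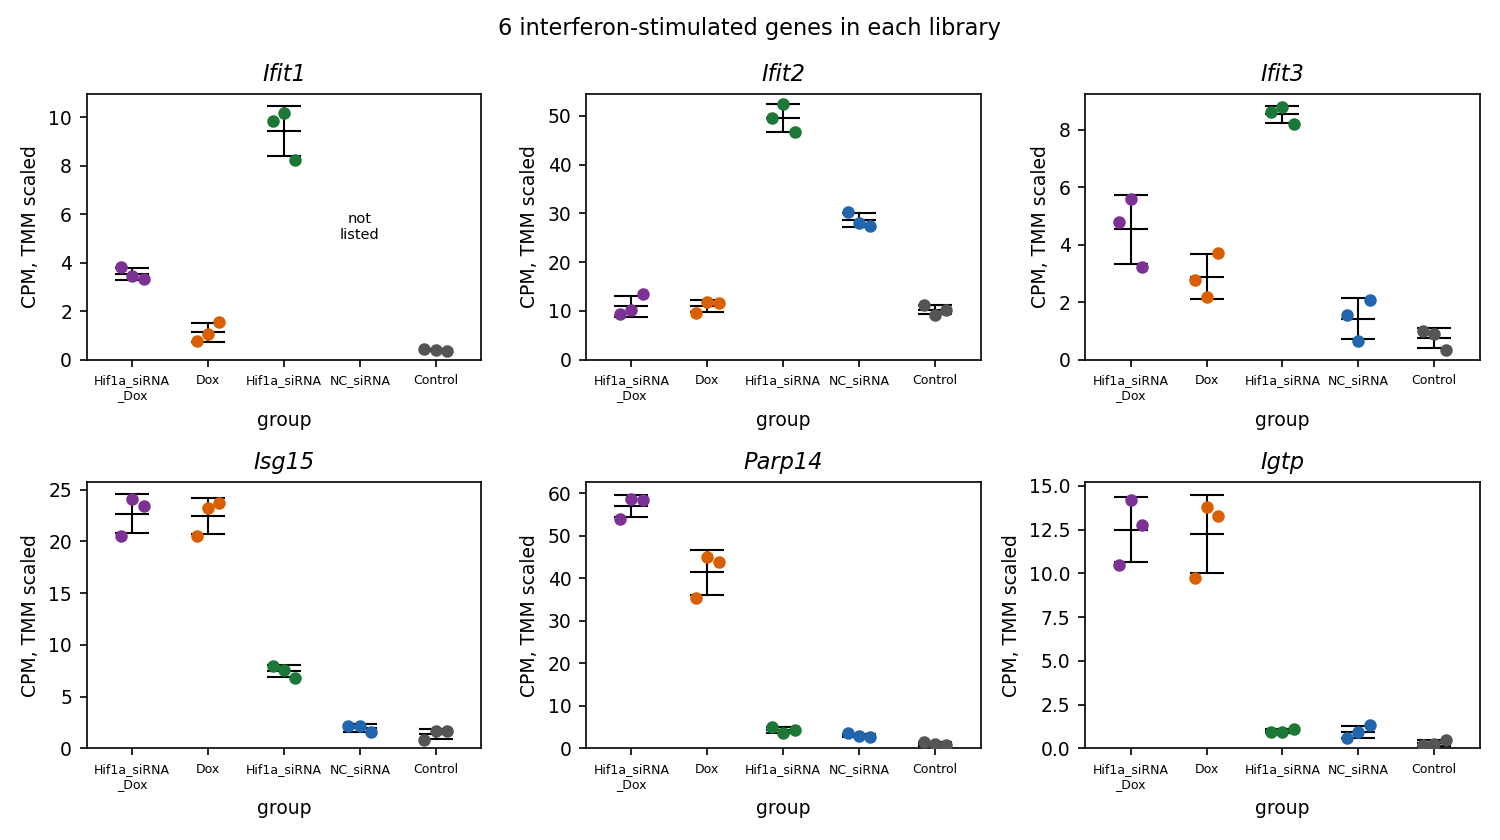
CPM of 6 interferon-stimulated genes in each library, by group; points are libraries and the black bar is the mean ± SD of 3. Ifit1, Ifit2 and Ifit3 are highest in Hif1a_siRNA, at 9.43, 49.5 and 8.54 CPM on average (Ifit1 among the 4 groups analysed, without NC_siRNA), while Isg15, Parp14 and Igtp are highest in the 2 groups given doxorubicin.

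The difference of the doxorubicin effects, with and without the anti Hif-1α siRNA, was called for 26.3% of all genes upward and 32.3% downward. Of the 29 interferon-stimulated genes 2 were higher and 13 lower, with a median of -0.43 beside -0.06. Ifit3 (-2.85), Isg15 (-2.41) and Ifit2 (-2.28) were the lower ones named, at edgeR adjusted p of 1.98e-05 or less, and Isg20 was higher (3.78, 7.96e-16). In Isg15 both drug effects were upward, and the one after the anti Hif-1α siRNA (1.61) was smaller than the one without it (4.01). In Ifit2 the drug effect was downward after the anti Hif-1α siRNA (-2.18, edgeR adjusted p = 4.52e-14), and Dox against Control was not called (0.10, 0.477). In Hif1a_siRNA_Dox against Dox, the comparison led by Ccl5, 21.5% of all genes were higher and 20.8% lower. Of the 29, 9 were higher and 1 lower (Parp9), with a median of 0.06 beside 0.01. The named ones were Irgm1 (0.97), Cmpk2 (0.91), Mx2 (0.77) and Ifi27 (0.63), with edgeR adjusted p of 0.0062 or less.

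**Figure D5:**
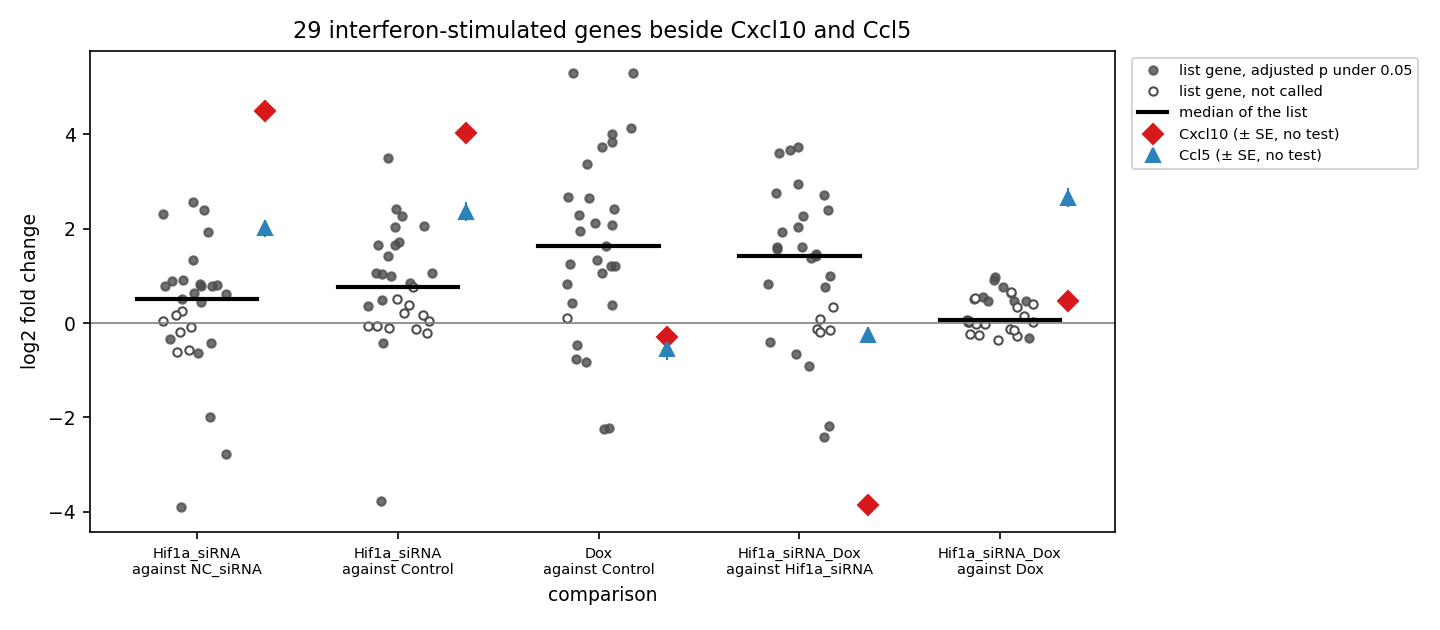
Log2 fold changes of 29 interferon-stimulated genes in 5 comparisons, filled where the edgeR adjusted p is under 0.05 and open where not; black bars are list medians, red diamonds Cxcl10 and blue triangles Ccl5, each ± SE with no test. Cxcl10 lies above every list gene in Hif1a_siRNA against NC_siRNA and below every one in Hif1a_siRNA_Dox against Hif1a_siRNA, and Ccl5 lies above all of them in Hif1a_siRNA_Dox against Dox. Genes not analysed in NC_siRNA cells are not drawn. Among them Ifit1 had 4.51 in Hif1a_siRNA against Control, in a fit of the compared groups, beside 4.03 for Cxcl10.

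The response element was found in 13 of the 26 interferon-stimulated genes with a promoter window, or 50.0%, out of 33 analysed in any group. Isg15 and Igtp, high with the drug, hold it, as do Ifit1 and Ifit3, high in Hif1a_siRNA cells. Ifit2 has no match in its windows.

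NF-kB subunits and regulators had 21 of 24 members tested. In Hif1a_siRNA against NC_siRNA 9 were higher and 5 lower, near the shares of all genes. Tnfaip3, also called A20, which ends NF-kB signals, was lower (-2.39, edgeR adjusted p = 3.1e-10), as was Nfkbiz (-1.70, 1.5e-09), while the subunit Relb (1.03, 4.7e-08) and the inhibitor Nfkbib (1.02, 3.1e-09) were higher. In Hif1a_siRNA_Dox against Dox, where 21.5% of all genes were higher and 20.8% lower, 7 were higher and 2 lower. These counts were 11 and 1 with DESeq2, and 14 and 0 with library totals alone, so they depend on the scaling. The subunit Nfkb1 (1.02, edgeR adjusted p = 5.25e-08), the kinase Map3k14 (0.97, 5.85e-06), Birc2 (0.74, 4.81e-05) and Tnfaip3 (0.62, 0.00215) were the named ones. Nfkb1 averaged 36.7 ± 1.97 CPM in Hif1a_siRNA_Dox, 18.1 ± 1.71 in Dox, 55.2 ± 3.17 in Hif1a_siRNA, 51.2 ± 2.58 in NC_siRNA and 25.4 ± 3.72 CPM in Control cells (SD, n = 3 each). Unlike Ccl5, its second highest group was NC_siRNA. Tnfaip3 had 38.8, 31.6 and 36.2 CPM in Hif1a_siRNA_Dox, 19.6, 26.0 and 23.9 in Dox, 0.995, 1.78 and 1.62 in Hif1a_siRNA, 7.37, 9.78 and 6.02 in NC_siRNA and 4.50, 4.67 and 4.41 CPM in Control cells. It was lowest in Hif1a_siRNA, where Cxcl10 and Ccl5 were highest. Its highest group was Hif1a_siRNA_Dox, where Ccl5 averaged 9.84 CPM, beside 11.7 CPM in Hif1a_siRNA. Of 18 NF-kB inflammatory targets, Csf1, a macrophage growth factor, was higher in Hif1a_siRNA than in NC_siRNA (0.72, edgeR adjusted p = 4.85e-05) and in Hif1a_siRNA_Dox than in Dox cells (0.70, 6.27e-05). Tnfsf9, a costimulatory ligand of the TNF family, was lower in Hif1a_siRNA than in NC_siRNA cells (-1.42, edgeR adjusted p = 2.05e-08), and the mitochondrial enzyme Sod2 was higher (0.27, 0.00288). Neither Tnfsf9 (0.26) nor Sod2 (-0.13) was called in Hif1a_siRNA_Dox against Dox, and the other 15 targets were not analysed here.

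Art3, a gene on the opposite strand that overlaps Cxcl10, had 116 to 135 reads in Hif1a_siRNA_Dox, 125 to 145 in Dox, 6 to 18 in Hif1a_siRNA, 15 to 45 in NC_siRNA and 15 to 27 in Control libraries. It was lowest in the group with 2801 to 2981 Cxcl10 reads. Whether the counting used strand is not given in the sources used here, so in the other groups, where Cxcl10 had 90 to 206 reads, a share of reads from Art3 cannot be told apart. No annotated gene overlaps Ccl5.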

How the data were processed

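The authors deposited whole-number read counts for each gene, without normalization. The submitters' processing notes list StringTie 2.1.3b, HISAT2 2.1.0, Bowtie2 2.3.4.1, Trimmomatic 0.38 and FastQC 0.11.7, with build mm10, and the labels' protocols name RNeasy and TruSeq Stranded mRNA kits. Repeated gene IDs were kept once, and blank symbols were filled by gene ID from RefSeq GRCm38.p6. The 12721 genes listed for all 5 groups were fitted together with edgeR 4.0.16 in R 4.3.3, using TMM, a group term, robust quasi-likelihood F tests (two-sided, 10 residual degrees of freedom) and Benjamini-Hochberg adjustment over all of them, at a threshold of 0.05. The low-count filter removed 0 genes. Ifit1 and Ddx60, listed for 4 groups, were tested in fits of the compared groups. CPM were scaled with TMM. Exon lengths for values per kb came from the first GENCODE M21 transcript, and promoters from RefSeq GRCm38.p6.

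Lists of up to 8 tested members could be named in full, and otherwise up to 4 called members with the largest change and at least 1 CPM. Some genes that this rule would name are not reported here and remain in every fit and count. The 2 genes and the lists were chosen with earlier results of these data known. The procedure was tested on simulated data. Alternatives were other scalings (RLE, upper quartile, library totals), DESeq2 1.42.0, an adjusted p under 0.01, a minimum of 1 CPM in 3 libraries, no low-count filter, only the compared groups, a replicate block and leaving out each library. The per-kb ratio over exons of all transcripts was added after seeing the data.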

Additional observations from a re-analysis of the deposited data

Results flagged for a closer look

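The drug's effect after the anti Hif-1α siRNA minus its effect without it passed an edgeR adjusted p under 0.05 in many list genes. Those named here are up to 4 of each list, the ones with the largest difference and at least 1 CPM, given on the log2 scale. Among other chemokines and proteins that bind them they were Ccl28 (-1.81), Sdc1 (-1.16), Sdc3 (-1.51) and Sdc4 (1.15). Ccl28 had 6, 10 and 8 reads in the Control libraries, so counting error weighs on its value. Of 8 sensing genes called, the named ones were Ticam1 (1.61), Cgas (-1.11), Trim25 (-1.04) and Irf3 (-0.92). Of 12 interferon receptor and JAK-STAT genes called, the named ones were Irf9 (-1.73), Jak2 (-1.07), Ifngr1 (0.87) and Irf1 (0.84). Of 15 interferon-stimulated genes called, the named ones were Isg20 (3.78), Ifit3 (-2.85), Isg15 (-2.41) and Ifit2 (-2.28), and in a fit of the 4 groups compared also Ifit1 (-2.93), Gbp7 (-2.37) and Ifit3b (-2.68). Of 11 NF-kB subunits and regulators called, the named ones were Tnfaip3 (2.24), Nfkbiz (1.48), Birc3 (-1.20) and Relb (-1.05). Among the NF-kB inflammatory targets Tnfsf9 was called (1.51). The Birc3 call was lost with DESeq2 and without Control replicate 2, Hif1a_siRNA replicate 1 or 2, Dox replicate 1 or 2, or Hif1a_siRNA_Dox replicate 1. The comparison has no group with the negative control siRNA and doxorubicin, so the siRNA's target and the transfection cannot be told apart in it. Nor can the drug and the time since the siRNA, as the harvest time of Hif1a_siRNA cells is not given.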

How the results depend on the processing

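Neither chemokine changed sign in any comparison under any alternative tried. Ccl5 ranged from 2.54 to 2.91 in Hif1a_siRNA_Dox against Dox, and Cxcl10 from -4.05 to -3.70 in Hif1a_siRNA_Dox against Hif1a_siRNA, over all alternatives and left-out libraries. With library totals alone Cxcl10 was 4.72 in Hif1a_siRNA against NC_siRNA, 4.47 in Hif1a_siRNA against Control and -4.05 in Hif1a_siRNA_Dox against Hif1a_siRNA, and Ccl5 was 2.80 in Hif1a_siRNA against Control. With upper-quartile factors Cxcl10 was -3.70 in Hif1a_siRNA_Dox against Hif1a_siRNA. Library totals moved the median of all genes by up to 0.44, in Hif1a_siRNA against Control, and upper-quartile factors by up to 0.15. With library totals the share of calls that were higher was 68.2% in Hif1a_siRNA against NC_siRNA (53.9% with TMM), 67.0% in NC_siRNA against Control (49.5%), 76.6% in Hif1a_siRNA against Control (54.0%), 76.8% in Hif1a_siRNA_Dox against Dox (50.9%) and 26.6% in the difference of the drug effects (44.9%). Gpc1 in Hif1a_siRNA against Control turned to 0.18, from -0.26 with TMM.

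Of the 29 interferon-stimulated genes, the 1 lower call in Hif1a_siRNA_Dox against Dox became 0 with RLE, library totals, DESeq2, an adjusted p under 0.01 or only the compared groups, 3 with upper-quartile factors, and 0 to 2 without single libraries. Lower calls in Hif1a_siRNA_Dox against Control were 2 to 4 without single libraries. With library totals there were 1 lower in NC_siRNA against Control, 25 higher and 1 lower in Hif1a_siRNA against Control and 8 lower in Hif1a_siRNA_Dox against Hif1a_siRNA. At an adjusted p under 0.01, 8 were higher in NC_siRNA against Control. Counts of genes called stayed within 1.5 times in every comparison and alternative.

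Same-numbered libraries shared only a number: their deviations from group means correlated at -0.155 to 0.0828. With a replicate block 8540 genes were called in Hif1a_siRNA against NC_siRNA, 8447 in NC_siRNA against Control, 9396 in Hif1a_siRNA against Control, 10623 in Dox against Control, 10685 in Hif1a_siRNA_Dox against Hif1a_siRNA, 5261 in Hif1a_siRNA_Dox against Dox, 10746 in Hif1a_siRNA_Dox against Control and 7373 in the difference (8608, 8502, 9465, 10654, 10717, 5373, 10771 and 7455 without it). Over the exons of all transcripts the per-kb ratio of Cxcl10 to Ccl5 was 0.272 in Hif1a_siRNA_Dox and 3.22 in Hif1a_siRNA cells, beside 0.310 and 3.68 over first transcripts. With 29 to 46 Ccl5 reads in a Dox library, counting error weighs on that group. The cause of the changes between settings was not tested.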
